A study of Arabidopsis thaliana with 24 samples.

Results

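A set of 10 genes that plant physiologists use to follow leaf senescence, darkness and the breakdown of chlorophyll were examined in Arabidopsis thaliana rosettes exposed to ozone. They were taken by locus identifier from the 32678 loci counted in every library: SAG12 (AT5G45890), SAG13 (AT2G29350) and SAG21 (AT4G02380) of the senescence-associated genes, SEN1 (AT4G35770), DIN10 (AT5G20250), DIN11 (AT3G49620) and ASN1 (AT3G47340) of the dark-induced genes, and PAO (AT3G44880), SGR1 (AT4G22920) and NYC1 (AT4G13250) of chlorophyll breakdown. The genes were chosen by name and role, with no measured threshold, but with the ozone fold changes and control levels of these same libraries already known. Their own changes are therefore a description and not independent evidence. RNA came from whole rosettes of 3-week-old plants of 4 lines, each library from a pool of 10 to 15 rosettes. Te and C24 are natural accessions that differ in ozone sensitivity according to the series title, Col-0 is the reference accession, and CT101 is a line of unstated origin. Plants received 350 ppb ozone for 2 h or none, so the 24 libraries form 8 groups of 3 biological replicates. The time between exposure and sampling was not stated, and no line carried a labelled transgene or mutation.

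Leaf senescence is the ordered dismantling of a leaf, in which chloroplast proteins and chlorophyll are degraded and their nitrogen is moved to growing organs. NYC1 takes the first step from chlorophyll b towards chlorophyll a, SGR1 removes the central magnesium, and PAO opens the ring, after which the leaf loses its green colour. SAG12, a cysteine protease, is the usual marker of age-dependent senescence, whereas SAG13 and SAG21 also respond to stress. The dark-induced genes respond to lack of light and sugar, and ASN1 among them encodes the asparagine synthetase that stores nitrogen when carbon is short. DIN10 encodes a protein of the raffinose synthase family, DIN11 a 2-oxoglutarate-dependent dioxygenase, and SEN1, also called DIN1, a protein with a rhodanese-like domain.

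Library totals ranged from 13633768 to 25789925 counts, and 20554 loci had enough counts to be tested. SAG12 did not pass the filter, so 9 of the 10 genes were tested. Along the first principal component (58.1% of the variance), ozone replicate 2 lay nearest to the controls in every line, at 41.4 in C24 against 95.1 and 109 for the other C24 ozone libraries. As a check of the tissue, the summed level of 3 leaf genes (RBCS1A, LHCB1.3 and CA1) was 25672.3 to 41206.5 CPM (counts per 1e6, scaled by TMM factors) in controls and 14925.1 to 29624.6 under ozone. Root genes summed to 39.2 to 84.3 CPM in controls and 32.7 to 77.6 under ozone, nearly all from PYK10, with RHD6 at 0 in 24 libraries. Flower genes summed to at most 2.59 CPM in controls and 1.4 under ozone. The part of these shifts in the results below was not tested. In pooled whole rosettes, a change in the number of cells that carry a transcript and a change in transcript per cell cannot be told apart.

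Under ozone, SAG21 rose in all 4 lines, and SAG13, DIN11, SEN1 and SGR1 rose in Te, CT101 and Col-0. DIN11 was also called higher in C24, a call lost in 25 of 31 alternative settings. DIN10 was called higher in CT101 and Col-0, NYC1 fell in all 4 lines, and PAO and ASN1 were called in no line. Calls are from the main fit, edgeR's quasi-likelihood test with TMM scaling and no replicate block (adjusted p under 0.05 over all 20554 genes). With the replicate number as a block, ASN1 was called higher in CT101 and PAO lower in C24. Of the 9 tested genes, 2 were called higher in C24, against 25.6% of all genes, and 1 lower, against 22.2%. In Te, 5 were called higher, against 32% of all genes, and 1 lower, against 30.9%. In CT101, 6 were higher, against 32.9%, and 1 lower, against 32.4%. In Col-0, 6 were higher, against 30.0%, and 1 lower, against 26.9%. Without C24 ozone replicate 2, 6 of the 9 genes were called in C24 in place of 3. The median log2 fold change of the 9 genes was 1.56 in Te, 1.66 in CT101, 0.97 in Col-0 and 0.70 in C24, while that of all tested genes lay between -0.03 and -0.01. Nothing is read from these shares, because the genes were chosen with the ozone values known.

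**Figure D1:**
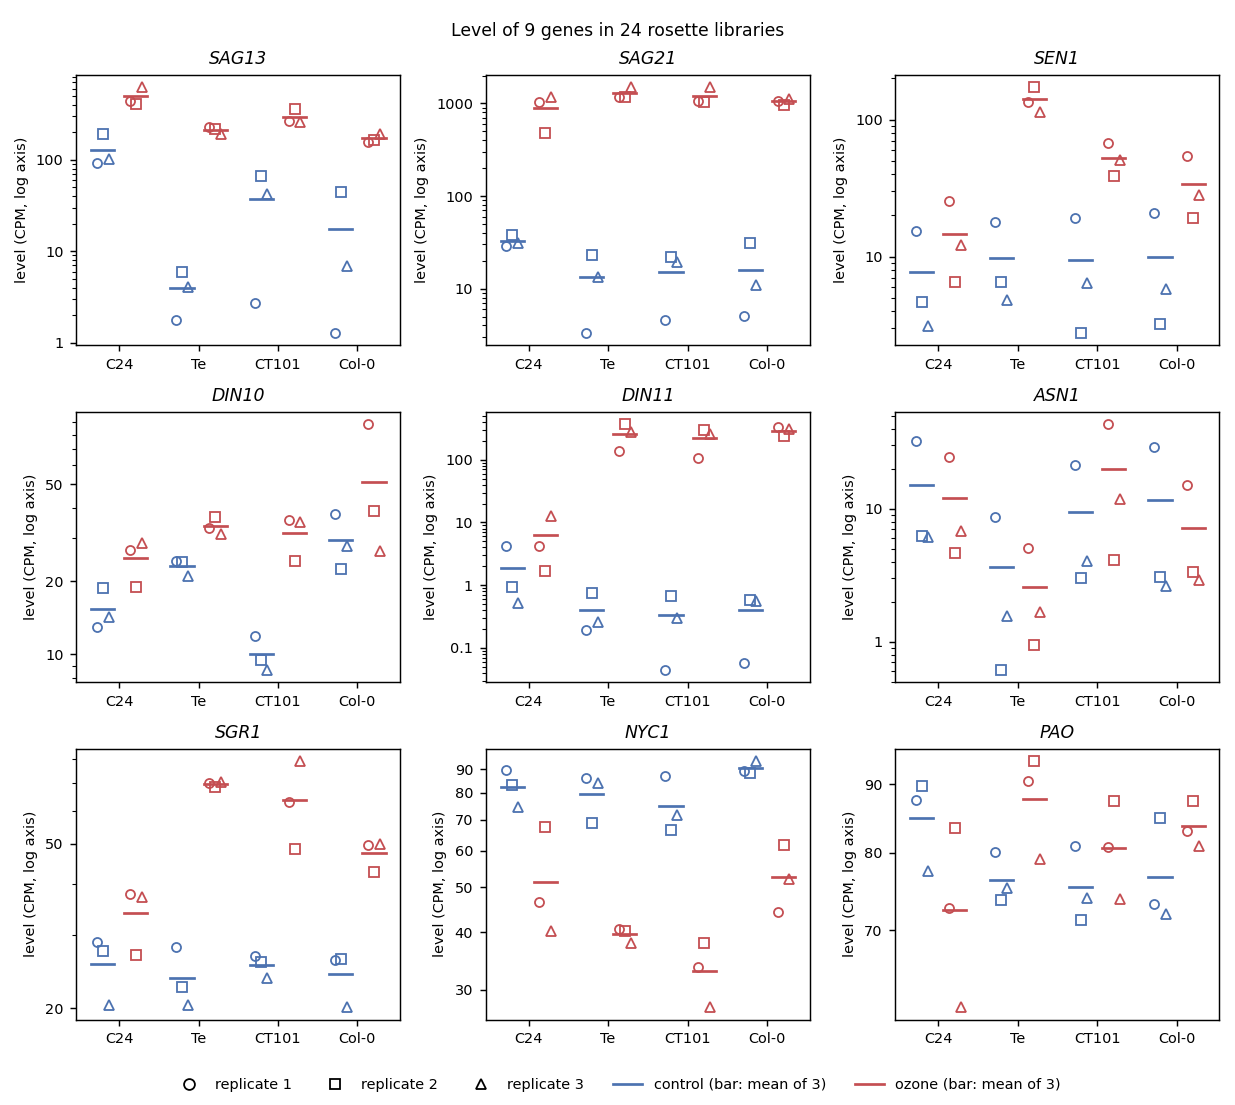
Level of 9 genes in each of the 24 libraries, in CPM on a log axis, by line on the horizontal axis, with controls in blue and ozone in red, replicates as symbols and the mean of 3 as a bar. SAG21 is at 477.7 CPM or more in every ozone library and at 37.6 CPM or less in every control, while PAO overlaps between treatments in each line and DIN11 stays at or below 12.8 CPM in C24.

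To show the letters that lie before 4 of these genes with unlike patterns, the 250 bases upstream of the annotated start are given 5′ to 3′ on the gene's strand. SAG21 rose in every line, NYC1 fell in every line, DIN11 rose to a level that depended on the line, and ASN1 followed the replicate number. The sequences were read from the RefSeq genome of Col-0 (TAIR10.1, whose chromosomes match the TAIR10 build of the counts), so they do not show the other lines. The 6 motifs searched on both strands were the W-box forms TTGACC and TTGACT (bound by WRKY factors), the G-box CACGTG (palindromic, counted once), ACTCAT (a bZIP site of hypo-osmolarity genes), TATCCA (known from sugar-starved rice promoters) and TGACG (the core bound by TGA factors). Capitals mark each match, and a match on the opposite strand appears as its reverse complement. No printed match overlaps another.
SAG21, chr4:1047106-1047355, minus strand: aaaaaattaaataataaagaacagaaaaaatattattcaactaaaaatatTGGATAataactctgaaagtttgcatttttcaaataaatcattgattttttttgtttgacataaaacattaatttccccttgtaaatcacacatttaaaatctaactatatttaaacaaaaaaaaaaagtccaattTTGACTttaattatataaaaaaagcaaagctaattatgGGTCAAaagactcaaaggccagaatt
NYC1, chr4:7687007-7687256, minus strand: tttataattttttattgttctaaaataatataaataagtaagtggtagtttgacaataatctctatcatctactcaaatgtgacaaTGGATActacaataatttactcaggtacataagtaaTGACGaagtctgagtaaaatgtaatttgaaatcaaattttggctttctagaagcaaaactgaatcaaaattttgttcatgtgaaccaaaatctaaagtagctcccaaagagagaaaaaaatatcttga
DIN11, chr3:18393497-18393746, plus strand: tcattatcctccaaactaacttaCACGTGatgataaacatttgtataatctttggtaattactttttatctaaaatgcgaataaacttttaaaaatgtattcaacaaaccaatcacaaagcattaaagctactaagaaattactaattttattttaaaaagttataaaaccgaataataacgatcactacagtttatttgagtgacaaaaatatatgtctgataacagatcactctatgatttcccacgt
ASN1, chr3:17441432-17441681, minus strand: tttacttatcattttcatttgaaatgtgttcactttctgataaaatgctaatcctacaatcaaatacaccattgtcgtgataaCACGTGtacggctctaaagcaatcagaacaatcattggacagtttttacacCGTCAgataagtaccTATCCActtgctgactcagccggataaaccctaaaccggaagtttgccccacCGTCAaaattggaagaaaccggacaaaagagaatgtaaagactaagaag
The SAG21 window holds TTGACC on the opposite strand at -26 to -21 from the start, TTGACT at -64 to -59 and TATCCA on the opposite strand at -200 to -195. NYC1 has TATCCA on the opposite strand at -164 to -159 and TGACG at -128 to -124. DIN11 has the G-box at -227 to -222. ASN1 has the G-box at -167 to -162, TATCCA at -101 to -96, and TGACG on the opposite strand at -116 to -112 and at -49 to -45. DIN10, not printed, has TTGACC at -145 to -140, and the windows of SAG12, SAG13, SEN1, PAO and SGR1 hold none of these letters. Among 26711 promoter windows of the same length, TTGACC occurs in 12.2%, TTGACT in 19.1%, CACGTG in 6.57%, ACTCAT in 12.3%, TATCCA in 13.7% and TGACG in 18.6%. A match describes the letters and does not show binding.

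SAG21, a small protein of the late embryogenesis abundant family that is linked to oxidative stress tolerance, had the highest level of the 10 genes per kilobase of exon in all 4 ozone groups. It lies on chromosome 4 at 1046204 to 1046997, minus strand (TAIR10). Its controls measured 28.7, 37.6 and 31 CPM in C24 for replicates 1, 2 and 3, 3.32, 23.3 and 13.5 in Te, 4.53, 21.9 and 19.3 in CT101, and 5.06, 31 and 10.9 in Col-0. Ozone libraries reached 1036.0, 477.7 and 1165.5 CPM in C24, 1181.1, 1185.0 and 1489.2 in Te, 1056.1, 1031.8 and 1509.9 in CT101, and 1069.9, 958.0 and 1126.5 in Col-0. Every ozone library lay above every control, and C24 ozone replicate 2 was the lowest of the 12. The log2 fold changes were 6.59 ± 0.74 (SE, n = 3 per group) in Te, 6.30 ± 0.73 in CT101, 6.06 ± 0.72 in Col-0 and 4.78 ± 0.68 in C24, with adjusted p of 2.49e-07, 3.3e-07, 7.44e-07 and 1.3e-05 in edgeR. The smaller rise in C24 did not pass the test of the difference: Te minus C24 was 1.80 (95% interval 0.17 to 3.44, adjusted p = 0.198 in edgeR). Leaving out control replicate 2 of the line gave 7.27 in Te and 7.04 in Col-0. The annotated transcript of AT4G04125 is 100% identical to SAG21 over 180 bases, so reads from that stretch cannot be told apart.

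SAG13, a short-chain dehydrogenase, differed among the unexposed lines more than any other of the 9 genes in log2 terms. Controls measured 92.1, 191.6 and 103.0 CPM in C24 but 1.76, 5.91 and 4.09 in Te, 2.71, 65.8 and 42.5 in CT101, and 1.28, 44.6 and 6.96 in Col-0. All C24 controls were above all controls of the other lines, and replicate 1 was the lowest control in each line. Ozone libraries measured 439.3, 408.5 and 625.9 CPM in C24, 226.0, 217.7 and 193.5 in Te, 264.6, 359.5 and 257.9 in CT101, and 155.8, 164.0 and 192.5 in Col-0. Ozone and control libraries of a line did not overlap in any line, and ozone libraries spread less than controls, with a coefficient of variation of 7.95% in Te and 11.3% in Col-0 against 53.1% and 133.7% in their controls. In order of mean level the groups ran from C24 ozone (491.3 CPM) through CT101 ozone (294.0), Te ozone (212.4), Col-0 ozone (170.8), C24 control (128.9), CT101 control (37), Col-0 control (17.6) to Te control (3.92). Neighbours in this order overlapped between Col-0 ozone and C24 control, between CT101 and Col-0 controls, and between Col-0 and Te controls.

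SAG13 rose 54.2-fold in Te (log2 5.76 ± 1.00 SE, adjusted p = 5.16e-05), 7.95-fold in CT101 (2.99 ± 0.86, adjusted p = 0.00458) and 9.57-fold in Col-0 (3.26 ± 0.87, adjusted p = 0.00345) in edgeR. In C24 the log2 fold change was 1.93 ± 0.82 with an adjusted p of 0.0589 in edgeR. It was 2.09 with an adjusted p of 0.0232 when the replicate number was a block. That block is shared by all groups. The pairing check passed for C24 (lowest 0.103) but failed for Te and Col-0. Between controls, Te was 32.9-fold below C24 (log2 -5.04 ± 0.97, adjusted p = 0.00052) and Col-0 7.22-fold below C24 (-2.85 ± 0.86, adjusted p = 0.0178). CT101 was 9.43-fold above Te (3.24 ± 0.92, adjusted p = 0.0432), a call that was lost in 22 of 31 alternative settings (adjusted p up to 0.194). Single control libraries moved these values. Without Col-0 control replicate 2, the one at 44.6 CPM, the ozone log2 fold change in Col-0 was 5.36 (adjusted p = 8.51e-05) and Col-0 was below C24 by 4.95 (-4.95) among controls. Without CT101 control replicate 2 the CT101 ozone value was 3.70, and CT101 minus Te among controls was 2.54 and no longer called (adjusted p = 0.194). SAG13 stands on chromosome 2 at 12600914 to 12602556 in a cluster of related dehydrogenases, and its transcript is 90.2% identical to AT2G29290 over 579 bases. That neighbour fell while SAG13 rose, from 87 ± 18.4 to 19.9 ± 8.68 CPM (SD, n = 3) in Te, from 75.5 ± 29.3 to 13.5 ± 5.43 in CT101 and from 79.2 ± 21.9 to 21.6 ± 12.9 in Col-0, with log2 fold changes of -2.13, -2.48 and -1.87 (all called in edgeR). How the counting shared reads between the pair is not given in the sources used here.

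SAG12, the marker of age-dependent senescence, was at or near 0 in every group. Its 3 libraries summed to 0 counts in C24, Te and Col-0 controls and in Te ozone, where a count of 0 allows up to 0.0582, 0.0505, 0.0512 and 0.0592 CPM over the group (counting error only). It had 11 counts over CT101 controls, 10 of them in replicate 2, then 2 counts over C24 ozone and 1 over CT101 ozone. Col-0 ozone had 21 counts, all in replicate 3 (1.16 CPM). No change under ozone was detectable at this depth beyond those single libraries.

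SEN1, induced by darkness and by defence signals, rose in Te, CT101 and Col-0. Controls measured 15.4, 4.65 and 3.13 CPM in C24, 18, 6.58 and 4.87 in Te, 19.1, 2.78 and 6.49 in CT101, and 20.8, 3.25 and 5.83 in Col-0. Ozone libraries measured 25.3, 6.52 and 12.2 CPM in C24, 134.2, 173.5 and 114.4 in Te, 67.4, 38.7 and 50.6 in CT101, and 54, 19.3 and 28 in Col-0. Te and CT101 ozone libraries lay apart from their controls, while C24 and Col-0 overlapped, with replicate 1 the highest control in each. The log2 fold changes were 3.83 ± 0.78 in Te (adjusted p = 0.000264), 2.46 ± 0.74 in CT101 (adjusted p = 0.00679) and 1.78 ± 0.74 in Col-0 (adjusted p = 0.0455), against 0.95 ± 0.75 in C24 (adjusted p = 0.313), all in edgeR. Without control replicate 1 of the line, SEN1 values were 2.91 in Col-0, 3.5 in CT101 and 4.63 in Te. The Col-0 call was lost in 19 of 31 alternative settings, with adjusted p up to 0.205. Within each replicate number the ozone library was above the control library in 3 of 3 cases in every line. The ratios were 1.4 to 3.89 in C24 and 7.44 to 26.4 in Te. The pairing check failed for Te and Col-0, so same-numbered libraries are not taken as pairs there.

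DIN11 had the largest fold change of the 9 genes in Te, CT101 and Col-0, and a far smaller one in C24. Controls ranged from 0.195 to 0.765 CPM in Te, 0.0444 to 0.671 in CT101 and 0.0582 to 0.575 in Col-0, with 21 to 26 counts over 3 libraries, and the C24 controls measured 4.25, 0.939 and 0.522 CPM. Ozone libraries measured 135.3, 370.6 and 272.6 CPM in Te, 104.9, 298.5 and 255.4 in CT101, and 326.1, 238.5 and 305.0 in Col-0, but 4.25, 1.66 and 12.8 in C24. The highest C24 ozone library was thus below the lowest ozone library of each other line, and C24 ozone overlapped C24 controls. The log2 fold changes were 9.40 ± 0.90 in Col-0, 9.34 ± 0.91 in CT101 and 9.30 ± 0.90 in Te, with adjusted p of 4.3e-08, 3.74e-08 and 3.56e-08 in edgeR. In C24 it was 1.76 ± 0.72 (adjusted p = 0.0498), a call that was lost in 25 of 31 alternative settings, with the replicate block among them (adjusted p = 0.0733). Without C24 ozone replicate 3 the C24 value of DIN11 was 0.71, and without C24 control replicate 1 it was 3.10. Without control replicate 2 of the line it was 10.12 in Te and 10.31 in CT101.

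The line difference in DIN11 passed its own test against C24 in all 3 lines. The response was larger by 7.54 ± 1.16 log2 units in Te (adjusted p = 0.000437), 7.58 ± 1.17 in CT101 (adjusted p = 0.000908) and 7.64 ± 1.15 in Col-0 (adjusted p = 0.000724) in edgeR, values that share the C24 libraries. Without C24 control replicate 1 these DIN11 differences were 6.21, 6.24 and 6.30, and without C24 ozone replicate 3 they were 8.60, 8.62 and 8.69. Between the other lines the intervals of the difference were wide, from -2.49 to 2.57 for CT101 minus Te, -2.88 to 2.68 for Te minus Col-0 and -3.21 to 3.08 for CT101 minus Col-0. DIN11 (chromosome 3, 18393747 to 18396816, plus strand) is followed by a related dioxygenase gene, AT3G49630, that is 88% identical to it over 757 bases. AT3G49630 had 1 count over the Te controls and 404 over Te ozone, 2 and 438 in CT101, 1 and 612 in Col-0, and 3 and 19 in C24. The ratios of CPM were 520.4 (95% Poisson interval 92.9 to 20603.0) in Te, 267.3 (73.5 to 2213.9) in CT101, 590.3 (105.6 to 23354.3) in Col-0 and 6.58 (1.94 to 34.7) in C24. The intervals cover counting error only, and the ozone replicates measured 3.95, 14.4 and 9.5 CPM in Te, 3.36, 11.9 and 11.1 in CT101, 11.5, 7.87 and 10.2 in Col-0, and 0.338, 0 and 0.641 in C24. Reads shared with DIN11 cannot be told apart from its own.

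**Figure D2:**
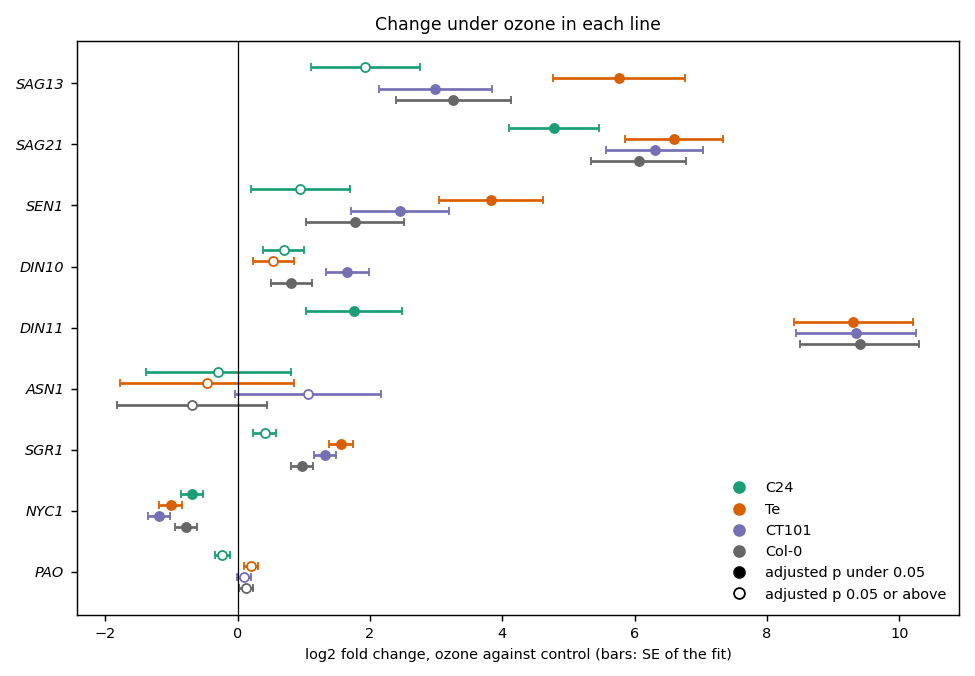
Log2 fold change of 9 genes, ozone against control, on the horizontal axis for each line (colours), with the SE of the fit as bars and filled points for adjusted p under 0.05. DIN11 sits near 9.30 to 9.40 in Te, CT101 and Col-0 and at 1.76 in C24, and NYC1 is the gene whose 4 points are filled on the negative side.

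DIN10 varied among unexposed lines and rose in CT101 and Col-0. Controls measured 13, 18.7 and 14.2 CPM in C24, 24.3, 24 and 21.1 in Te, 11.9, 9.45 and 8.62 in CT101, and 37.8, 22.4 and 27.9 in Col-0. Ozone libraries measured 26.9, 19 and 28.8 in C24, 33.1, 36.8 and 31.3 in Te, 35.7, 24.1 and 35 in CT101, and 88.5, 38.8 and 26.7 in Col-0. The groups lay apart in C24, Te and CT101 and overlapped in Col-0. Log2 fold changes were 1.66 ± 0.32 in CT101 (adjusted p = 0.000133), 0.81 ± 0.31 in Col-0 (0.0293), 0.70 ± 0.31 in C24 (0.0709) and 0.54 ± 0.31 in Te (0.133), each an adjusted p from edgeR. The Col-0 value rests on ozone replicate 1, without which it was 0.16 with an adjusted p of 0.599. The same omission, which also changes the pooled spread, put C24 (adjusted p = 0.0113) and Te (0.031) past the threshold. Among controls, CT101 was 2.92-fold below Col-0 (log2 -1.55 ± 0.32, adjusted p = 0.0016) and 2.31-fold below Te (-1.21 ± 0.32, adjusted p = 0.0271), and Col-0 was 1.91-fold above C24 (0.93 ± 0.31, adjusted p = 0.0319). The last 2 calls were lost in some alternatives, with adjusted p up to 0.137 and 0.152.

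ASN1 followed the replicate number rather than the treatment. Controls measured 32.6, 6.23 and 6.11 CPM in C24, 8.75, 0.612 and 1.55 in Te, 21.5, 3.02 and 4.02 in CT101, and 29.3, 3.08 and 2.63 in Col-0. Ozone libraries measured 24.6, 4.65 and 6.84 in C24, 5.11, 0.947 and 1.67 in Te, 43.5, 4.12 and 11.8 in CT101, and 15.2, 3.35 and 2.93 in Col-0. Replicate 1 was the highest library in 8 of 8 groups, at 3.91 to 10.3 times the mean of replicates 2 and 3, and treatments overlapped in every line. In the fit without the block, none of the ozone log2 fold changes was called: 1.06 ± 1.10 in CT101, -0.29 ± 1.09 in C24, -0.46 ± 1.32 in Te and -0.69 ± 1.13 in Col-0 (adjusted p of 0.414, 0.851, 0.783 and 0.63 in edgeR). With the replicate number as a block, CT101 rose by 1.07 on the log2 scale (adjusted p = 0.00222 in edgeR), and its ozone library was above the control library in 3 of 3 pairs, by 1.36 to 2.94 times. The same block gave ASN1 in Te controls 2.19 log2 units less than in C24 (-2.19, adjusted p = 2.63e-05), 1.46 less than in CT101 (1.46 for CT101 minus Te, adjusted p = 0.00624) and 1.55 less than in Col-0 (-1.55, adjusted p = 0.00139). Te was the lower member of 3 of 3 pairs in each of these comparisons.

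A contrast of replicate 1 with the mean of replicates 2 and 3 in the block fit was added after these values were seen. It called 7.76% of all tested genes higher in replicate 1 and 8.22% lower. Of the 9 genes, ASN1 was higher by 2.54 ± 0.15 log2 units (adjusted p = 2.35e-08) and SEN1 by 1.36 ± 0.23 (adjusted p = 0.00059), with replicate 1 highest in 8 and 7 of the 8 groups. SAG13 (-0.90 ± 0.42, adjusted p = 0.162) and SAG21 (-0.66 ± 0.31, adjusted p = 0.167) were not called, and each had its lowest library in replicate 1 in 5 of 8 groups. For both genes these groups include the controls of every line, while the contrast averages over controls and ozone. The labels do not say what a replicate number marks, so what separated replicate 1 was not tested.

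**Figure D3:**
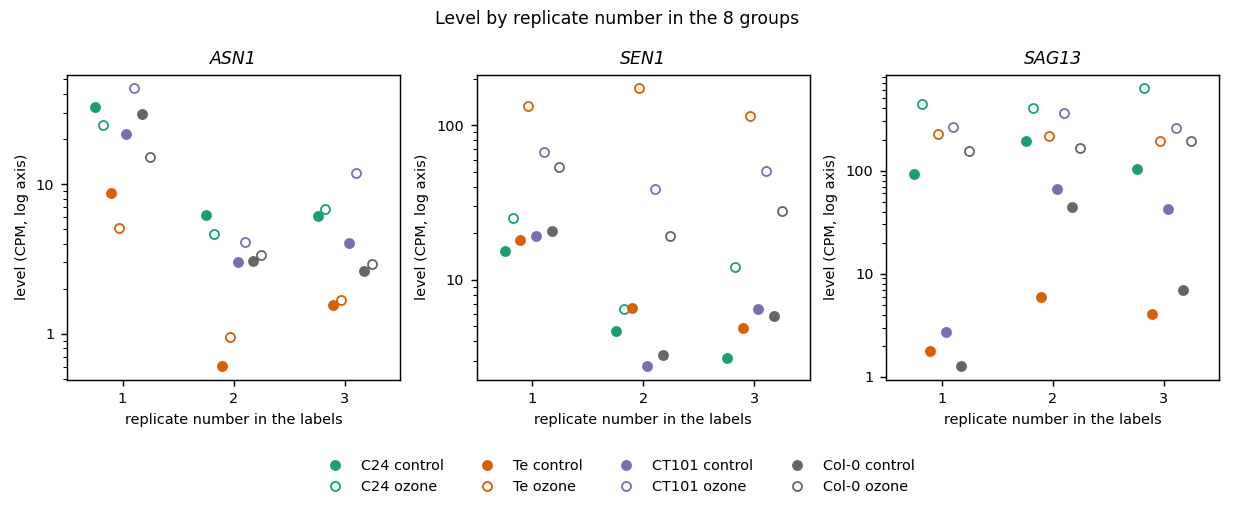
Level of ASN1, SEN1 and SAG13 in CPM on a log axis against the replicate number in the labels, with lines as colours, controls filled and ozone libraries open. ASN1 is highest in replicate 1 in 8 of 8 groups, and SAG13 controls of Te, CT101 and Col-0 are lowest there.

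SGR1, the magnesium-dechelating STAY-GREEN protein, rose in Te, CT101 and Col-0, while controls of the 4 lines lay together between 20.1 and 28.9 CPM. Ozone libraries measured 70, 68.4 and 70.6 CPM in Te, 63.1, 48.5 and 79.1 in CT101, 49.7, 42.7 and 50 in Col-0, and 37.7, 26.9 and 37.2 in C24. The first 3 lines lay above all their controls, and C24 overlapped through ozone replicate 2. The log2 fold changes were 1.56 ± 0.18 (adjusted p = 1.94e-07), 1.32 ± 0.17 (1.32e-06) and 0.97 ± 0.17 (7.82e-05) in Te, CT101 and Col-0 in edgeR. In C24 it was 0.41 ± 0.17 with an adjusted p of 0.0574, 0.0409 with the replicate block, and 0.016 without C24 ozone replicate 2 (log2 0.55). The response exceeded that of C24 by 1.15 ± 0.25 in Te (adjusted p = 0.00508) and by 0.91 ± 0.24 in CT101 (adjusted p = 0.0247, lost in 8 of 31 alternatives), while Col-0 minus C24 was 0.56 (interval 0.08 to 1.04, adjusted p = 0.281).

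NYC1, a chlorophyll b reductase, was the one of the 3 chlorophyll breakdown members that fell. Controls measured 89.8, 83.3 and 74.5 CPM in C24, 86.1, 68.8 and 84.2 in Te, 87, 66.6 and 71.8 in CT101, and 89, 88.5 and 93.7 in Col-0. Ozone libraries measured 46.5, 67.4 and 40.3 in C24, 40.6, 40.3 and 37.9 in Te, 33.6, 37.8 and 27.5 in CT101, and 44.1, 61.7 and 52.2 in Col-0. The treatments lay apart in each line, with replicate 2 the ozone library nearest to the controls in C24, CT101 and Col-0. It was 1.61-fold lower in C24 (log2 -0.69 ± 0.17, adjusted p = 0.00207), 2.01-fold in Te (-1.01 ± 0.17, 2.51e-05), 2.28-fold in CT101 (-1.19 ± 0.17, 3.07e-06) and 1.72-fold in Col-0 (-0.78 ± 0.17, 0.000442) in edgeR, and these 4 calls held in all 31 alternatives.

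PAO, the oxygenase that opens the chlorophyll ring, ranged only from 61.3 to 93.7 CPM over the 24 libraries. Mean levels under control and ozone were 85 ± 6.55 and 72.5 ± 11.1 CPM (SD, n = 3) in C24, 76.4 ± 3.32 and 87.8 ± 7.63 in Te, 75.4 ± 4.95 and 80.7 ± 6.79 in CT101, and 76.7 ± 7.12 and 83.8 ± 3.24 in Col-0. The log2 fold changes were -0.23 (95% interval -0.45 to -0.01) in C24, 0.20 (-0.02 to 0.42) in Te, 0.10 (-0.12 to 0.32) in CT101 and 0.13 (-0.09 to 0.35) in Col-0. None was called in the main fit, but 4 of 31 alternatives called PAO lower in C24. The edgeR adjusted p there was 0.0324 with library totals alone and 0.0288 with the replicate block. It was 0.0232 without C24 ozone replicate 2 and 0.00797 without ozone replicate 2 of all lines. PAO overlaps the neighbouring locus AT3G44870 by 11 bases on the same strand.

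Between unexposed lines, 0 to 2 of the 9 genes were called in each comparison. Te against C24 gave 1, SAG13, against 30.1% of all genes in either direction. Col-0 against C24 gave 2, SAG13 and DIN10, against 26.4%, and CT101 against Te gave the same 2 genes, against 5.23%. CT101 against Col-0 gave 1, DIN10, against 15.7%. CT101 against C24 gave 0 in edgeR, against 16.6%, with 2 genes at an unadjusted p under 0.05 and 1 called by DESeq2. Te against Col-0 gave 0, against 15.8%, with 1 gene at an unadjusted p under 0.05 and 0 called by DESeq2. SEN1, SGR1, NYC1 and PAO were called in none of the 6 control comparisons. SAG21, DIN11 and ASN1 were also called in none by the main fit, but each was called in at least 1 alternative setting. Single libraries decided some of these calls. Without Te control replicate 2, SAG21 was lower in Te than in C24 (-1.95, adjusted p = 0.0435). Without Col-0 control replicate 2, SAG21 was lower in Col-0 than in C24 (-2.02, adjusted p = 0.0242) and SAG13 higher in CT101 than in Col-0 (3.15, adjusted p = 0.0158). The SAG13 call in Col-0 against C24 was lost in 4 of 31 alternatives.

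For the difference in ozone response, 3 of the 9 genes were called in Te minus C24 (SAG13, SGR1 and DIN11), against 9.58% of all genes. In CT101 minus C24, 2 were called (SGR1 and DIN11), against 9.71%, and in Col-0 minus C24 1 was called (DIN11), against 3.37%. SAG13 rose by 3.83 ± 1.20 log2 units more in Te than in C24 (adjusted p = 0.0498), from controls that were 32.9-fold apart, and that call was lost in 23 of 31 alternatives with adjusted p up to 0.165. CT101 minus Te gave 0 called genes in edgeR, against 0.321%, with 2 at an unadjusted p under 0.05 and 0 called by DESeq2. Te minus Col-0 gave 0, against 0.954%, with 2 and 0 by the same counts, and CT101 minus Col-0 gave 0, against 1.60%, with 0 and 0. With the replicate block, ASN1 rose by 1.32 more in CT101 than in C24 (adjusted p = 0.0274).

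**Figure D4:**
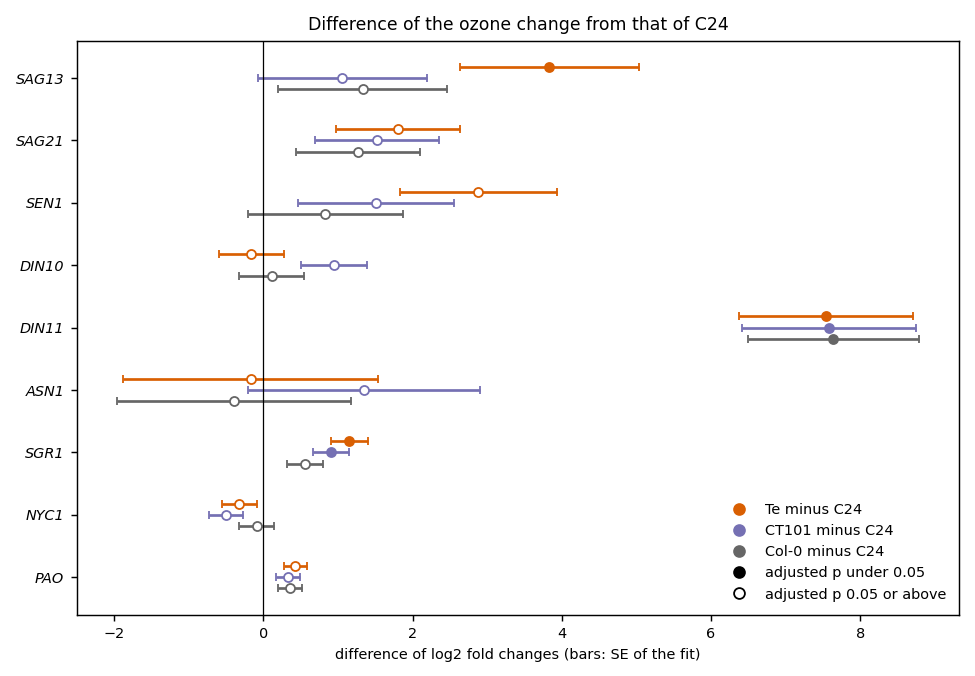
Difference of the ozone log2 fold change of Te, CT101 and Col-0 from that of C24 for 9 genes, with the SE of the fit as bars and filled points for adjusted p under 0.05. DIN11 is filled at 7.54, 7.58 and 7.64, SGR1 at 1.15 and 0.91, and SAG13 at 3.83 for Te.

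Some pairs of the genes varied together across the 24 libraries. The correlations are a description over libraries that share the ozone contrast and their replicate numbers. Over all libraries, log2 levels of SGR1 and NYC1 had r = -0.89, and both SGR1 and SAG21 had r = 0.91 with DIN11. After removing the group means, the same pairs had r = -0.42 (SGR1 and NYC1), 0.19 (SGR1 and DIN11) and 0.62 (SAG21 and DIN11). By that measure SAG13 and SAG21 had r = 0.86, SEN1 and ASN1 0.83 and PAO and NYC1 0.76, while SAG13 and SEN1 had -0.73. Among 20554 genes, those most like SAG13 over the 24 libraries were a chitinase-family gene, CHI (AT2G43570, r = 0.987), and the amino acid transporter gene LHT1 (r = 0.981). DIN11 was most like the ERF transcription factor gene ABR1 (r = 0.984) and its neighbour AT3G49630 (0.976). ASN1 was most like the autophagy gene ATG13 (AT3G49590, r = 0.893) and AT5G63280 (0.846), and DIN10 most like KCS13 (0.853) and AT3G52030 (0.846).

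Other chlorophyll breakdown genes were called in both directions in Te and Col-0, and only lower in C24 and CT101. Of 10 tested in C24, 0 were called higher and 6 lower (edgeR), against 25.6% and 22.2% of all genes. In Te 3 were higher and 4 lower, against 32% and 30.9%. In CT101 0 were higher and 7 lower, against 32.9% and 32.4%, and in Col-0 2 were higher and 4 lower, against 30.0% and 26.9%. The list's median log2 fold change was -0.48 in C24 and Te, -0.84 in CT101 and -0.36 in Col-0, against -0.03 to -0.01 for all genes. TIC55, an oxygenase that acts after PAO, went from means of 127.5 to 67.5 CPM in C24 and from 148.0 to 45.7 in CT101. SGRL, a STAY-GREEN-like gene, fell by 1.69 ± 0.21 log2 units in CT101, 1.22 ± 0.20 in Te, 1.16 ± 0.20 in Col-0 and 0.77 ± 0.20 in C24. CLH2, a chlorophyllase, fell by 1.24 ± 0.28 in C24 and 2.04 ± 0.27 in CT101, and its values in Te (-0.79) and Col-0 (-0.37) were not called. CLH1, the other chlorophyllase, rose in Te by 1.27 ± 0.31 and in Col-0 by 1.21 ± 0.31 (from 78.9 ± 19.5 to 182.6 ± 13.2 CPM), fell by 0.84 ± 0.31 in C24 and was not called in CT101 (0.48). PPH, the pheophytinase that removes the phytol tail, was higher in Te (0.55 ± 0.12) and Col-0 (0.57 ± 0.12) and not called in C24 (-0.16) or CT101 (0.05). RCCR and MES16 of the same list were called lower in each line. Their values ran from -0.46 (C24) to -1.10 (CT101) for RCCR and from -0.49 (C24) to -1.37 (CT101) for MES16. SGR2, a paralogue of SGR1, rose by 1.28 ± 0.39 in Te, from 0.609 to 1.5 CPM, and was not called in the other lines (-0.32 to 0.63).

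Of 15 further senescence-associated genes and proteases, 7 were called higher and 0 lower in C24, 9 and 2 in Te, 8 and 3 in CT101, and 9 and 1 in Col-0, and the rest were not called. Of all genes, 25.6% to 32.9% were called higher and 22.2% to 32.4% lower in these lines. The list's median lay between 0.86 (C24) and 1.33 (CT101). SAG14, a blue copper protein, rose the most in each line, from 64.3 to 996.9 CPM in C24, 3.85 to 888.3 in Te, 15.4 to 1517.2 in CT101 and 11 to 1183.1 in Col-0, as means of 3. SAG29, a sugar transporter, fell by 2.78 ± 0.66 log2 units in Te, 2.60 ± 0.56 in Col-0 and 2.52 ± 0.58 in CT101. Of 10 senescence transcription factors, 9 were called higher in C24, Te and CT101 each, 8 in Col-0, and 0 lower in any line, against the same all-gene shares, with medians of 1.79 (C24) to 2.48 (Col-0). WRKY30 rose by 7.02 ± 0.62 in Te, 6.86 ± 0.58 in Col-0, 6.11 ± 0.53 in C24 and 4.93 ± 0.55 in CT101, and WRKY6 by 4.42 (C24) to 6.22 (Te).

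Of 18 tested dark-induced and carbon starvation genes, 4 were called higher and 2 lower in C24, 7 and 3 in Te, 8 and 3 in CT101, and 8 and 3 in Col-0. In C24, 25.6% of all genes were called higher and 22.2% lower. In the other lines 30.0% to 32.9% of all genes were higher and 26.9% to 32.4% lower, and the list's medians were 0.54 to 0.64, and 0.14 in C24. BCAT2, a branched-chain amino acid aminotransferase, rose by 3.88 ± 0.47 in Te, 3.60 ± 0.45 in Col-0 and 1.70 ± 0.39 in C24, with 2.42 ± 0.40 in CT101, and the beta-galactosidase gene BGAL4 by 1.15 (C24) to 2.65 (CT101). MCCB, of leucine breakdown, fell by 0.98 ± 0.15 in Te, 0.84 ± 0.15 in CT101, 0.76 ± 0.15 in Col-0 and 0.47 ± 0.15 in C24. Of 10 nitrogen remobilization genes, 3, 3, 3 and 4 were called higher and 0, 3, 3 and 2 lower, for C24 first, then Te, CT101 and Col-0. The all-gene shares in these lines were 25.6% to 32.9% higher and 22.2% to 32.4% lower. Both counts lay near those shares in Te and CT101, while C24 had 0 lower against 22.2%. Col-0 had 4 higher against 30.0% and 2 lower against 26.9%. The list's medians were 0.11 to 0.18. GLN1;1, a cytosolic glutamine synthetase, rose by 2.07 (C24) to 2.75 (Col-0) over the 4 lines, and GDH2, a glutamate dehydrogenase, by 1.87 (C24) to 2.69 (CT101). ASN2, the paralogue of ASN1, fell by 1.36 ± 0.45 in Te, 1.08 ± 0.44 in Col-0 and 1.32 ± 0.45 in CT101, and was not called in C24 (-0.82).

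Relatives of DIN10 and neighbours of SAG13 and DIN11 were set beside them. Of 3 tested raffinose synthase genes, RFS2 rose by 3.14 ± 0.26 in Te, 2.67 ± 0.25 in CT101, 2.34 ± 0.25 in Col-0 and 1.06 ± 0.24 in C24, and RFS5 fell by 0.74 ± 0.16, 1.27 ± 0.16 and 0.67 ± 0.16 in Te, CT101 and Col-0. Of 11 tested neighbours, 2 were called higher and 6 lower in C24, 3 and 7 in Te, 3 and 7 in CT101, and 4 and 6 in Col-0, against 25.6% to 32.9% of all genes called higher and 22.2% to 32.4% lower. AT2G29340, next to SAG13, rose by 0.70 (CT101) to 1.48 (Te) over the 4 lines, and AT2G29370 fell in each, by 1.35 in C24 to 2.36 in CT101.

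**Figure D5:**
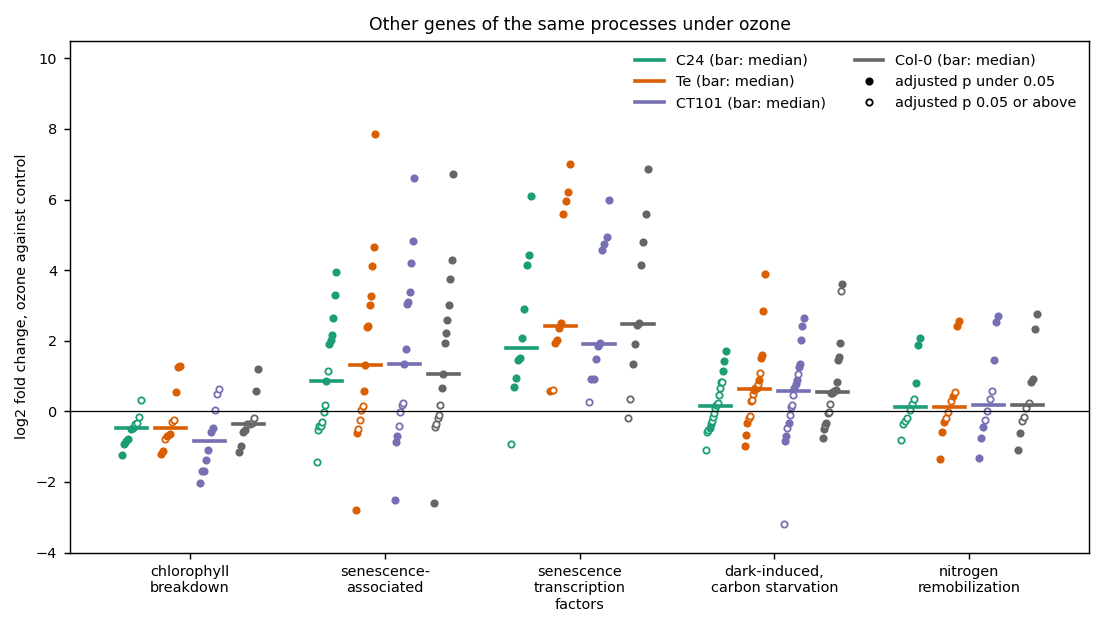
Log2 fold change, ozone against control, of each tested gene of 5 gene lists on the vertical axis, by line (colours), with the list's median as a bar and filled points for adjusted p under 0.05. The chlorophyll breakdown medians lie between -0.84 and -0.36, and those of senescence transcription factors between 1.79 and 2.48.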

How the data were processed

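Counts of reads per annotated locus, 1 table per library, were deposited by the authors. Per the labels, libraries were prepared with a TruSeq RNA v2 kit, and per the submitters' processing notes FastQC, Bowtie2, SAMtools, HTSeq and the TAIR10 build were used; versions and strand setting are not given in the sources used here. The counts were unnormalised whole numbers.

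Counts were fitted in R 4.3.3 with edgeR 4.0.16 (robust quasi-likelihood, 1 mean per group, all 24 libraries) after filterByExpr (minimum count 10, minimum total 15) and TMM scaling. Contrasts were 2-sided, with Benjamini-Hochberg adjustment over 20554 genes and calls at 0.05. There were 4 ozone, 6 control and 6 response comparisons. SE is the absolute log2 fold change over the square root of F, and intervals are 1.96 SE. Levels are TMM-scaled CPM. p-values measure only the spread between these pools. Replicate pairs were compared by chi-square and no 2 libraries agreed within sampling noise. The procedure was also run on simulated counts in which few genes changed, in a single ozone group, without a replicate effect. Far more genes changed in these data, so nothing is concluded from that run.

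Same-numbered libraries were taken as paired where every correlation of their deviations exceeded 0.1: between ozone and control this held for CT101 (lowest 0.162) and C24 (0.103) but failed for Col-0 (0.049) and Te (0.0404), and in controls for all pairs of lines except CT101 and Col-0 (0.0186). The pairing is inferred from the data, and the labels do not state it. Alternatives were RLE factors, library totals alone, no filter, DESeq2 1.42.0, the replicate block, the compared groups alone, each of 24 libraries left out, and ozone replicate 2 left out in all lines. The replicate block was fitted over all libraries, also those of lines that failed the pairing check.

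The 10 genes, the 7 gene lists (79 genes, 77 tested) and the 6 motifs were chosen with earlier results of these data known. Named genes were the 10 members and the called list genes with the largest rise and fall in each line. The 2 genes most like each of SAG13, ASN1, DIN10 and DIN11 were named too. TIC55, named after its values were seen, and PPH, RCCR and MES16 were added outside this rule. So were DRM1, SEN5, KIN10, EXL1, DIN2, GDH1 and NAP for the contrast of replicate 1. Of 32678 loci, 31912 matched the RefSeq annotation, with 43.918% of starts identical, so windows were taken upstream of the outer of the file's and the annotation's start. Figures were drawn with matplotlib 3.10.9.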

Additional observations from a re-analysis of the deposited data

Results flagged for a closer look

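A total of 6 differences between lines in the response to ozone passed the test of the difference itself (edgeR interaction contrasts, adjusted p under 0.05 over all genes), in comparisons that share the C24 libraries. DIN11 rose by 7.54 log2 units more in Te than in C24, by 7.58 more in CT101 and by 7.64 more in Col-0, with 3 of 3 ozone libraries of each line above all C24 ozone libraries. SGR1 rose by 1.15 more in Te and 0.91 more in CT101 than in C24, and the CT101 value was lost in 8 of 31 alternatives. SAG13 rose by 3.83 more in Te than in C24, a call lost in 23 of 31 alternatives.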

How the results depend on the processing

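Of 4463 alternative values for single genes and comparisons, 4307 kept their side of the threshold, 41 newly passed it and 115 no longer passed it. A total of 152 uncalled values changed sign, and 0 called ones did. Counts of called genes moved by over 1.5 times as follows. With the replicate block, C24 ozone gave 5 in place of 3, Te against C24 controls 2 in place of 1, Te against Col-0 controls 1 in place of 0, Te minus C24 response 5 in place of 3 (SEN1 and PAO added) and CT101 minus Col-0 response 1 in place of 0 (ASN1, adjusted p = 0.049), the last 2 in comparisons the pairing check did not allow. The block changed calls in the paired comparisons only as given beside the results. Fitted on the compared groups alone, counts were 2 for Te against C24 controls, 1 for CT101 against C24, 1 for Col-0 against C24, 1 for CT101 against Te and 1 for CT101 minus C24 response. CT101 against Te controls gave 1 with no filter and 1 without ozone replicate 2 of all lines, which gave 5 for C24 ozone. DESeq2 gave 1 for CT101 against C24 controls. Smaller moves include CT101 ozone (8 in place of 7), CT101 against Te controls (3 in place of 2) and CT101 minus C24 response (3 in place of 2) with the block, and Col-0 ozone (5 in place of 7) with library totals and on the compared groups alone. The causes were not tested.

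Leaving out 1 library gave 2 to 6 called genes for C24 ozone, 6 without C24 ozone replicate 2. Control comparisons gave 1 to 2 for Te against C24, 0 to 3 for Col-0 against C24, 0 to 2 for CT101 against Te, 0 to 1 for Te against Col-0 and 1 to 2 for CT101 against Col-0. Response differences gave 1 to 2 for CT101 minus C24 and 0 to 1 for CT101 minus Col-0. Scaled by library totals alone, all tested genes had a median ozone log2 fold change of -0.17 in Te, -0.14 in C24 and Col-0 and -0.13 in CT101, with the direction of every called member kept. It moved the share of higher calls from 41.2% to 24.8% for Te against C24 controls, 37.3% to 25.6% for CT101 against C24, 44.4% to 33.5% for Col-0 against C24, and 50.2% to 61.4% for CT101 minus Col-0 response. All-gene counts moved past 1.5 times in control CT101 against C24 (3409, to 2184) and in the response differences: 1970 (1227 to 3041) for Te minus C24, 1995 (684 to 3914) for CT101 minus C24, 692 (369 to 1156) for Col-0 minus C24, 66 (27 to 120) for CT101 minus Te, 196 (109 to 365) for Te minus Col-0 and 329 (170 to 857) for CT101 minus Col-0. Depth limits SAG12, and DIN11 in controls.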

Other observations

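Outside the 10 genes, the dark-induced and carbon starvation list differed between replicate 1 and the mean of replicates 2 and 3 (block fit, a contrast added after the data were seen). Of its 18 genes, 12 were higher in replicate 1 and 1 was lower (edgeR, adjusted p under 0.05), against 7.76% and 8.22% of all genes. DRM1, a dormancy-associated gene, was higher by 1.09 ± 0.14 log2 units, SEN5 by 0.87 ± 0.20 and KIN10, a subunit of the SnRK1 energy-sensing kinase, by 0.17 ± 0.05. EXL1, an EXORDIUM-like gene, was lower by 1.28 ± 0.24 (-1.28). DIN2 had the largest difference of the list, also towards lower (-2.47 ± 0.84), and was not called (adjusted p = 0.0546 in edgeR). In the nitrogen list, 3 of 10 genes were higher and 2 lower, with a median of -0.06. Of these, GDH2 was higher by 0.70 ± 0.12 and GDH1 by 0.61 ± 0.07. ASN2 was lower (-0.93 ± 0.09), while ASN1 was higher. NAP, a senescence NAC factor, was higher by 0.77 ± 0.15 and was the only 1 of 10 senescence transcription factors called. Among 10 chlorophyll breakdown genes, 1 was higher and 0 were lower.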
